A study of Saccharomyces cerevisiae with 12 samples.

Results

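The genes described here are the 41 budding yeast genes of the DNA replication machinery, taken by their gene identifiers from the 7126 genes listed in each library. They code for DNA polymerases α, δ and ε with primase, the sliding clamp PCNA and its loaders, the single-strand binding protein RPA, the enzymes that join Okazaki fragments, fork protection proteins, Cdc45 and GINS, the firing factors Sld2, Sld3 and Dpb11, and the origin recognition complex (ORC). All 41 passed the filter on low values, and all were tested. RNA was sequenced from MATα-playing-a cells (strain LBHY29, a MATα strain named for taking the a role in mating) and from MATa cells (strain MP 384), each in log phase in YPD with bovine serum albumin at 30 °C. Stimulated cells had been with 10 nM of the mating pheromone α-factor for 2 h, and unstimulated cells were taken before it was added, with 3 biological replicates in each of the 4 groups. No group was kept for 2 h without α-factor, so α-factor and 2 h more in culture cannot be told apart. Stimulated cells were the rest of the cultures that had given the unstimulated ones, so both groups of a strain share cultures; the labels do not say which libraries belong together, and the tests treated them as separate. The labels give no alleles for either strain and name 1 strain per mating role, so strain background and mating type cannot be told apart.

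Replication starts at origins bound by ORC, where the Mcm2-7 helicase is loaded in G1 and is then activated in S phase with Cdc45 and GINS by the firing factors. Primase and polymerase α lay down primers, PCNA is loaded onto them, polymerases ε and δ extend the leading and lagging strands, and flap cleavage and ligation join the lagging-strand pieces. In yeast, many replication genes are transcribed around the G1/S transition, where MBF (Mbp1 with Swi6) binds the MluI cell cycle box (MCB, core ACGCGT) and SBF (Swi4 with Swi6) binds the related SCB element. α-Factor binds the receptor Ste2 and, through a kinase cascade, activates the transcription factor Ste12 and arrests the cycle in G1 before S phase.

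Levels are in FPKM, fragments per gene length and library size, with no read counts, so counting error could not be set beside them. FPKM summed over all genes came to 5332586 to 5516177 in stimulated libraries and 5989653 to 6666550.5 in unstimulated ones. Replicates correlated at r = 0.955 to 0.979 on the log2 scale (12 pairs), and pairs from different groups at 0.849 to 0.972 (54 pairs). As a check of the treatment, all 6 genes of a list of pheromone-induced genes were higher with α-factor in both strains. As a check of the strains, STE2 averaged 1822 and 565 FPKM in stimulated and unstimulated MATα-playing-a cells, against 8241 and 3674 FPKM in MATa cells. The α-cell genes STE3, MF(ALPHA)1 and MF(ALPHA)2 were listed at 0 in every MATα-playing-a library. SAG1, the other gene of that list, was higher in MATα-playing-a than in MATa cells, by 3.62 without and 5.50 with α-factor (log2). BAR1, an a-cell gene whose protease degrades α-factor, was listed at 0 in every MATa library. It was higher in MATα-playing-a cells, by 4.86 without and 5.69 with α-factor, while the other 6 genes of the a-cell list were lower there. Whether both strains met the same α-factor level over the 2 h was not tested.

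With α-factor, RNA of most of the 41 genes was lower in both strains, and none of the 41 was called higher. Median-ratio scaling called ORC5 higher in both strains and ORC4 in MATa cells. In MATα-playing-a cells 34 of 41 were called lower and 7 were not called, with a median log2 change of -0.62, while 39.1% of the 6608 tested genes were called lower, 29.8% were called higher and the median over all of them was -0.10. In MATa cells 36 of 41 were called lower and 5 were not called, with a median of -0.66, against 38.1% of all tested genes lower, 28.5% higher and a median of -0.09. A gene was called where the limma p, adjusted over all 6608 genes by Benjamini and Hochberg, was below 0.05, and a change is that of log2(FPKM + 1), stimulated minus unstimulated. The fall reached at least 2-fold in 8 of 41 genes in MATα-playing-a cells and in 10 of 41 in MATa cells, and in 7.55% of all tested genes in each strain.

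The same 34 genes were called lower in both strains. PRI1 and PSF3 were called lower in MATa cells and not in MATα-playing-a cells, which does not show that they differ between the strains. DPB3, PSF2, ORC4, ORC5 and ORC6 were called in neither. The values of the stimulated and unstimulated libraries did not overlap for 35 of 41 genes in MATα-playing-a cells, all lower, and for 37 in MATa cells, all lower but ORC5. Over all tested genes, 73.6% in MATα-playing-a and 69.5% in MATa cells did not overlap, in either direction. In bulk RNA, fewer cells expressing a gene and less RNA per cell cannot be told apart.

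**Figure D1:**
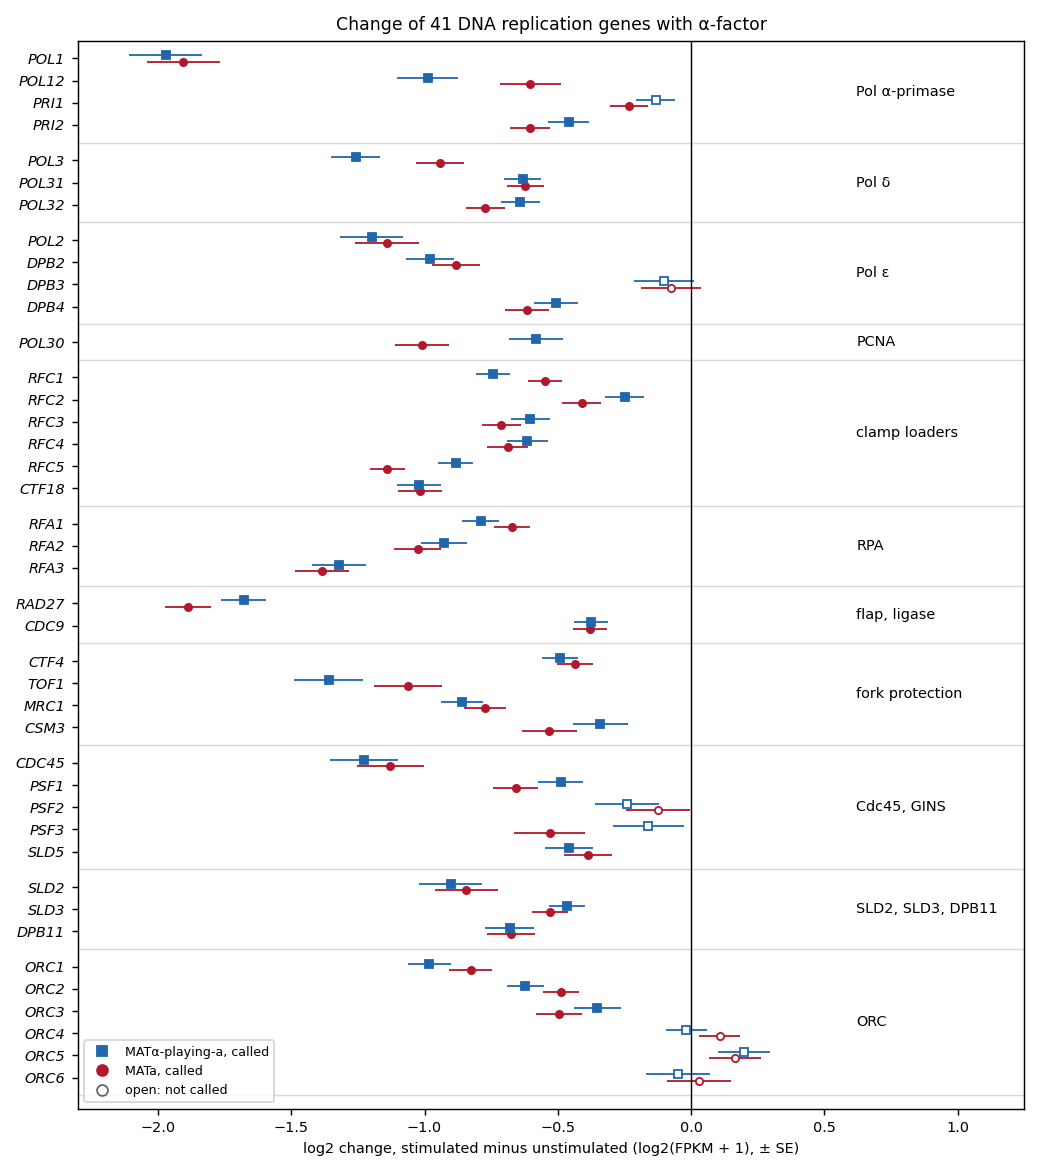
Log2 change with α-factor (stimulated minus unstimulated, log2(FPKM + 1), ± SE from limma) of each of the 41 genes, grouped by role, in MATα-playing-a cells (squares) and MATa cells (circles); filled symbols were called, open ones were not. POL1 and RAD27 lie farthest to the left in both strains, and ORC4, ORC5, ORC6 and DPB3 lie near 0; with median-ratio scaling ORC5 was called higher in both strains and ORC4 in MATa cells.

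As a set, the genes had lower RNA in stimulated libraries both in FPKM and as a share of all FPKM. Their summed level was 7112 ± 232 FPKM in stimulated and 11220 ± 472 FPKM in unstimulated MATα-playing-a libraries, and 6941 ± 25.6 FPKM in stimulated and 11519 ± 718 FPKM in unstimulated MATa libraries (SD, n = 3 each). Their share of the summed FPKM was 0.132% ± 0.00386 in stimulated and 0.180% ± 0.00344 in unstimulated MATα-playing-a libraries. In MATa libraries it was 0.128% ± 0.00194 in stimulated and 0.174% ± 0.0107 in unstimulated ones. The 12 libraries were thus separate by treatment on either measure. By mean level per length, POL1 was the lowest gene in stimulated cells, at 28.2 FPKM in MATα-playing-a and 25.8 FPKM in MATa cells. Unstimulated cells had POL2 lowest in MATα-playing-a, at 66.7 FPKM, and TOF1 lowest in MATa, at 61.1 FPKM. The highest was POL30 in stimulated cells (566 FPKM in MATα-playing-a, 469 FPKM in MATa) and RFA3 in unstimulated cells (987 FPKM in MATα-playing-a, 1025 FPKM in MATa). The spread between replicates was small against most falls: the coefficient of variation had a median over the 41 genes of 6.60% in stimulated and 5.86% in unstimulated MATα-playing-a cells, and of 5.31% in stimulated and 7.18% in unstimulated MATa cells.

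Promoter sequences are given for the 3 genes that fell most in MATa cells and for the 2 with the smallest changes there, so that their letters can be set beside the values that follow. Each window runs from 250 bases before to 50 bases after the annotated gene start, which is the start codon, and is read 5′ to 3′ on the gene's own strand from the RefSeq R64 genome, whose coordinates equal those of the files for all 41 genes; the strains' own promoters were not read. Capitals mark MCB cores (ACGCGT), the related letters ACGCGN, and SCB letters (CGCGAAA or CACGAAA), on either strand. POL1 (chrXIV:429837-430136, plus strand) has 2 MCB cores, as does RAD27 (chrXI:225826-226125, minus strand). RFA3 (chrX:96480-96779, minus strand) has no core and 2 matches of ACGCGN. ORC6 (chrVIII:345579-345878, minus strand) has none of these letters, and DPB3 (chrII:760044-760343, plus strand) has 1 match of ACGCGN that overlaps an SCB match.
POL1: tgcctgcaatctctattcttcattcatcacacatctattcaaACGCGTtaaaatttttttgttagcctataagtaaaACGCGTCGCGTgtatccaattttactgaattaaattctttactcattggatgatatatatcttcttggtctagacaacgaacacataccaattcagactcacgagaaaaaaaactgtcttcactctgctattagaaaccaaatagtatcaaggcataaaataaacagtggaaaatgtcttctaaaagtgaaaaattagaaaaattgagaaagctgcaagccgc
RAD27: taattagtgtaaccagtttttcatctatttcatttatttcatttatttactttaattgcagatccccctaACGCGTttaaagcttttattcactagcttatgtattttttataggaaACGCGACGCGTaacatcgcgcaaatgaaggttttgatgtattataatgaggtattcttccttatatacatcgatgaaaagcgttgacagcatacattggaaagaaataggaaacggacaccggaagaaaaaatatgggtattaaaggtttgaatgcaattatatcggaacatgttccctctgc
RFA3: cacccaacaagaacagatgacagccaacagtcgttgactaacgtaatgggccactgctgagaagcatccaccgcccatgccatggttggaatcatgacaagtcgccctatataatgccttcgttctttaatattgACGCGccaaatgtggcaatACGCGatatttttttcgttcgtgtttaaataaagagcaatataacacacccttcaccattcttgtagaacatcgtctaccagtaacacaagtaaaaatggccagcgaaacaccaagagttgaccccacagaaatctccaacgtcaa
ORC6: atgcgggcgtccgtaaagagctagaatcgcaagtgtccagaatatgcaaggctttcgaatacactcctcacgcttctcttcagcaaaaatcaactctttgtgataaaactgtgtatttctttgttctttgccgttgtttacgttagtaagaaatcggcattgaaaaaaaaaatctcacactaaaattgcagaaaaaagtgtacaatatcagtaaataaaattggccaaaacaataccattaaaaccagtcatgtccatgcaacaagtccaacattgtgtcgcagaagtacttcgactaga
DPB3: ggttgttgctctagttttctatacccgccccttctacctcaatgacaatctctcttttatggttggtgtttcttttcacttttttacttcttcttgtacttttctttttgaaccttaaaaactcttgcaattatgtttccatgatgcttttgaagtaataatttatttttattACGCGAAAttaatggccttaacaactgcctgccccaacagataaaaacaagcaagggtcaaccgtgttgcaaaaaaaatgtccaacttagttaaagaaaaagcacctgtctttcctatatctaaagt

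The MCB core stood in 21 of the 41 windows (51.2%), against 184 of the 6001 windows of the same length at all annotated protein-coding genes (3.07%). The 21 windows held 29 cores, with the first base 72 to 222 bases before the gene start and a median of 136. ACGCGN other than ACGCGT stood in 18 of 41 windows (43.9%), against 11.8% of all windows. SCB letters stood in 8 of 41 (19.5%), against 7.70%, and TGAAACA, the pheromone response element bound by Ste12, in 4 of 41 (9.76%), against 7.50%. All motifs were searched on both strands. MCB cores were present in all 3 polymerase δ genes, in all 4 fork protection genes, in RAD27 and CDC9 and in POL30, and in none of the 6 ORC genes. Besides POL1 and RAD27, 6 genes had 2 cores, and all 6 were called lower in both strains. Of the 13 genes with 1 core, 12 were called lower in MATα-playing-a and 13 in MATa cells. Most of the 41 genes were called lower whatever their letters, 34 in MATα-playing-a and 36 in MATa cells, against 39.1% and 38.1% of all tested genes. The sites of the 6 genes with 2 cores are shown here with 10 bases on each side and the core in capitals.
POL12 at chrII:153817-153842 (-): agcgtggtagACGCGTaatttttttt
POL12 at chrII:153794-153819 (-): ttttaccgtgACGCGTctcaccagag
RFA1 at chrI:158769-158794 (-): gaaaaatgtcACGCGTaaaaattaga
RFA1 at chrI:158739-158764 (-): gcgacaaaagACGCGTgaactaacat
RFA2 at chrXIV:48157-48182 (+): catatacgaaACGCGTtaggaaacgc
RFA2 at chrXIV:48169-48194 (+): gcgttaggaaACGCGTtctttccttt
TOF1 at chrXIV:122718-122743 (+): tgctactttgACGCGTttactgccgc
TOF1 at chrXIV:122737-122762 (+): ctgccgcattACGCGTttacgatgaa
MRC1 at chrIII:22235-22260 (-): tccttcttcgACGCGTcatgaagaga
MRC1 at chrIII:22206-22231 (-): aatgcgtaaaACGCGTttgcttcaat
CDC45 at chrXII:346106-346131 (-): ttcattcacgACGCGTattttttttt
CDC45 at chrXII:346076-346101 (-): atatcatctaACGCGTtttaagaaat

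Falls were on the whole larger in the genes with a core, a description of these genes without a test. In MATα-playing-a cells the 21 genes with a core had a median change of -0.86 and 20 were called lower, against a median of -0.48 and 14 called lower among the 20 genes without one. In MATa cells the median was -0.77 with all 21 called lower, against -0.51 with 15 of 20 called lower. The 8 genes with 2 cores had medians of -1.11 in MATα-playing-a and -1.04 in MATa cells, and the 13 with 1 core medians of -0.61 and -0.69. The 10 with ACGCGN and no core had medians of -0.55 and -0.67, close to those with 1 core. The 10 with neither a core nor ACGCGN had medians of -0.41 and -0.44. Large falls also occurred without a core and small ones with it: RFA3, without a core, changed by -1.32 in MATα-playing-a and -1.38 in MATa cells, and CDC9, with one, by -0.38 and -0.38. Over all tested coding genes, the 183 with a core had a median of -0.45 in both strains, and the 5697 without one -0.08; in MATa cells 63.4% and 38.04% of them were called lower.

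**Figure D2:**
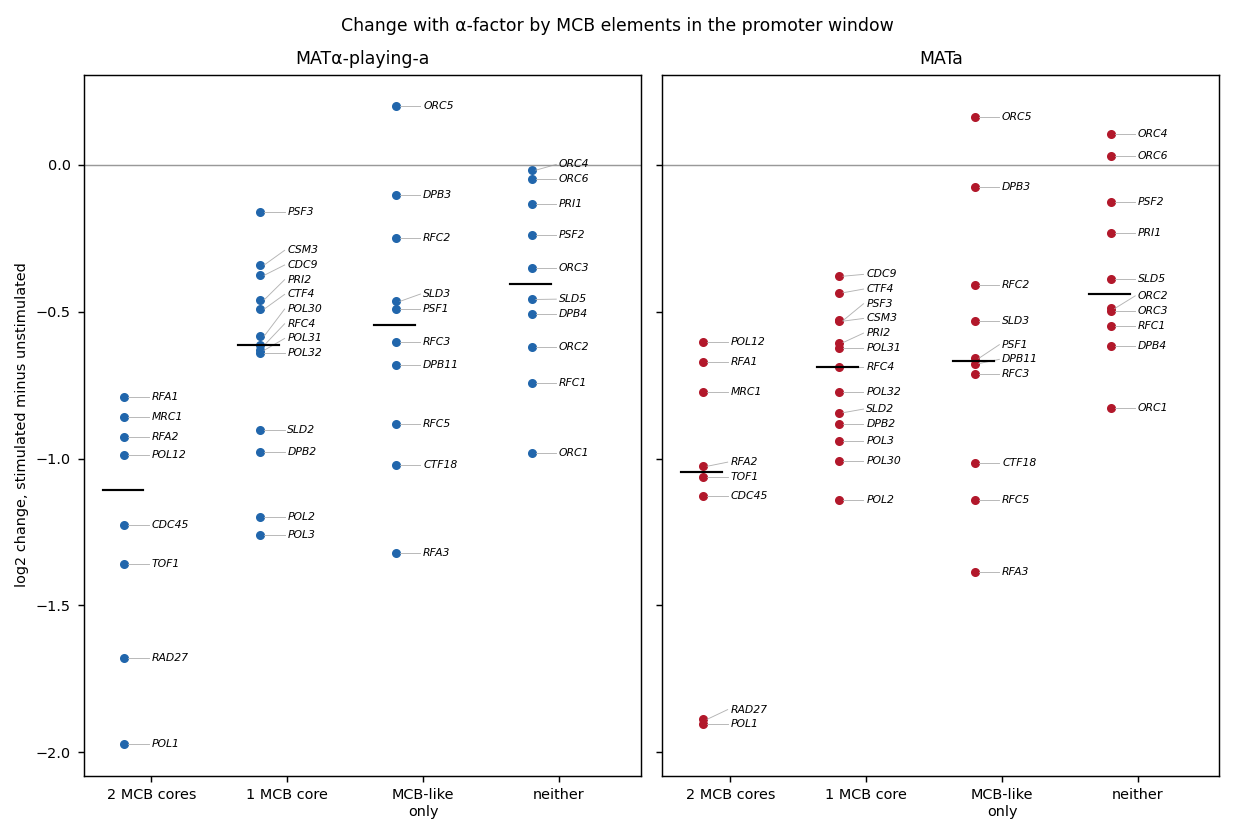
Log2 change with α-factor (stimulated minus unstimulated, log2(FPKM + 1)) of the 41 genes in MATα-playing-a cells (left) and MATa cells (right), by the MCB elements in the window from 250 bases before to 50 after the gene start; each point is a gene and each black line a median. The 8 genes with 2 cores all lie at -0.60 or below, and ORC4, ORC6 and DPB3, the genes nearest 0 in both strains, have no core; ORC4 in MATα-playing-a cells and DPB3 in MATa cells turn to just above 0 with median-ratio scaling, as does ORC6 in MATα-playing-a cells.

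Polymerase α and primase, which make the RNA-DNA primers, held both the largest fall of the 41 genes and one of the smallest. POL1, the catalytic subunit of polymerase α (YNL102W, chromosome XIV, 430087 to 434493), had 30.3, 22.1 and 32.3 FPKM in stimulated MATα-playing-a libraries, against 112, 106 and 118 FPKM in unstimulated ones. In MATa it had 27.2, 22.2 and 28.1 FPKM in stimulated libraries, against 96.8, 102 and 97.9 FPKM in unstimulated ones. The stimulated values lay far below every unstimulated one of their strain. The log2 change was -1.97 ± 0.14 in MATα-playing-a (SE; limma adjusted p = 2.63e-07) and -1.90 ± 0.14 in MATa cells (adjusted p = 3.62e-07), falls of 3.92-fold and 3.74-fold on the log2(FPKM + 1) scale.

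PRI1, the catalytic subunit of primase (YIR008C, chromosome IX, 373077 to 374306), had 241, 279 and 270.2 FPKM in stimulated MATα-playing-a libraries, against 305, 272 and 289 FPKM in unstimulated ones, and 1 stimulated library lay within the unstimulated range. MATa libraries had 241, 248 and 251 FPKM when stimulated, against 301, 271 and 299 FPKM when unstimulated, without overlap. Its change was -0.13 in MATα-playing-a (adjusted p = 0.122) and -0.23 in MATa cells (adjusted p = 0.0143), and the call in MATa was lost with median-ratio scaling (-0.14, adjusted p = 0.0993). POL12, the B subunit of polymerase α with 2 MCB cores, averaged 72.1 ± 9.49 FPKM in stimulated and 143 ± 2.62 FPKM in unstimulated MATα-playing-a cells, and 78.2 ± 9.23 FPKM in stimulated and 119 ± 11.2 FPKM in unstimulated MATa cells. PRI2, the large primase subunit, fell to 72.7% of its unstimulated mean in MATα-playing-a and to 65.4% in MATa cells.

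In polymerases δ and ε, which copy most of the DNA, the gene of the catalytic subunit had the largest change of its complex in both strains. POL3, the catalytic subunit of polymerase δ (YDL102W, chromosome IV, 276872 to 280165), had 61.1, 60.7 and 69.7 FPKM in stimulated MATα-playing-a libraries, against 144, 165 and 154 FPKM in unstimulated ones. In MATa the stimulated libraries had 66.1, 63.3 and 76.3 FPKM, against 128, 139 and 130.0 FPKM in the unstimulated ones. The groups were far apart in both strains, with changes of -1.26 ± 0.09 and -0.94 ± 0.09. POL31, an accessory subunit (YJR006W, chromosome X, 449202 to 450665), had 161, 182 and 171 FPKM in stimulated MATα-playing-a libraries, against 268, 267 and 262 FPKM in unstimulated ones. Stimulated MATa libraries had 174, 183 and 166 FPKM, against 292, 260.1 and 256 FPKM in unstimulated ones. Its changes of -0.63 in MATα-playing-a and -0.62 in MATa cells were smaller than those of POL3, and POL32, the other accessory subunit, changed by -0.64 and -0.77; all 3 were called lower in both strains.

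POL2, the catalytic subunit of the leading-strand polymerase ε (YNL262W, chromosome XIV, 148212 to 154880), had 31.9, 25.7 and 27.8 FPKM in stimulated MATα-playing-a libraries, against 70.5, 57.8 and 71.8 FPKM in unstimulated ones. In MATa it had 28.04, 31.4 and 30.8 FPKM with α-factor, against 63.00, 65.8 and 74.1 FPKM without. The falls were 2.30-fold and 2.21-fold. DPB2, the essential B subunit, changed by -0.98 in MATα-playing-a and -0.88 in MATa cells, and DPB4, a histone-fold subunit that also belongs to a chromatin remodelling complex, by -0.51 and -0.61. DPB3, the histone-fold partner of Dpb4 (YBR278W, chromosome II, 760294 to 760899), had 115, 132 and 119 FPKM in stimulated MATα-playing-a libraries, against 140.4, 120.5 and 132 FPKM in unstimulated ones, and 121, 136 and 121 FPKM in stimulated MATa libraries, against 155, 113 and 133 FPKM in unstimulated ones. These values overlapped in both strains, and the 95% intervals of the change were -0.35 to 0.15 and -0.32 to 0.17. DPB3 overlaps another listed gene, YBR277C, and with the reads' strand unknown the pair cannot be told apart. YBR277C changed by -0.25 in MATα-playing-a, without a call, and by -0.43 in MATa cells, where it was called lower.

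PCNA and all 6 clamp loader genes were called lower in both strains. POL30, which codes for PCNA, the clamp that holds polymerases on DNA (YBR088C, chromosome II, 424990 to 425766), had 581, 589.9 and 527 FPKM in stimulated MATα-playing-a libraries, against 838, 749 and 969 FPKM in unstimulated ones. Stimulated MATa libraries had 434, 514 and 459 FPKM, against 943, 871 and 1022 FPKM in unstimulated ones. Stimulated cells kept 66.4% of the unstimulated mean in MATα-playing-a and 49.7% in MATa cells. The overlapping listed gene YBR089W moved alike, at 492 ± 17.2 FPKM in stimulated and 757 ± 110.3 FPKM in unstimulated MATα-playing-a cells and 434 ± 1.15 FPKM in stimulated and 837 ± 59.9 FPKM in unstimulated MATa cells, and its reads cannot be told from those of POL30.

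RFC5, a subunit of the clamp loader RFC (YBR087W, chromosome II, 423765 to 424829), lies 160 bases from POL30 with its 3′ end towards it. It had 245, 262 and 263 FPKM in stimulated MATα-playing-a libraries, against 464, 454 and 506 FPKM in unstimulated ones. In MATa cells the stimulated values were 235, 221 and 237 FPKM, against 536, 479.8 and 515 FPKM in unstimulated libraries. Its changes were -0.88 ± 0.07 and -1.14 ± 0.07, the second being the largest in the group. RFC2, another subunit (YJR068W, chromosome X, 567643 to 568704), changed least in MATa cells. It had 377, 454 and 382 FPKM in stimulated MATα-playing-a libraries, against 495, 459 and 483 FPKM in unstimulated ones, and 419, 403 and 391 FPKM in stimulated MATa libraries, against 556, 528 and 529.6 FPKM in unstimulated ones. The groups did not overlap, though in MATα-playing-a 1 stimulated library came close to the lowest unstimulated one, and the call there (change -0.25, adjusted p = 0.0101) was lost with median-ratio scaling (-0.15, adjusted p = 0.0814). CTF18, which leads an alternative loader that acts in sister chromatid cohesion, fell 2.03-fold and 2.02-fold. RFC1, the large subunit, RFC3 and RFC4 kept 59.6% to 65.9% of their unstimulated means in MATα-playing-a and 60.9% to 68.3% in MATa cells; RFC1 overlaps YOR218C, which was also called lower in both strains.

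RPA, which coats single-stranded DNA at the fork, had all 3 subunit genes called lower in both strains, and the smaller the subunit, the larger the fall. RFA3, the smallest subunit (YJL173C, chromosome X, 96161 to 96529), had 378, 404 and 399.7 FPKM in stimulated MATα-playing-a libraries, against 986, 926 and 1048 FPKM in unstimulated ones. MATa libraries had 405, 399.5 and 363 FPKM with α-factor, against 1195, 870.4 and 1009 FPKM without. Stimulated values were close together in both strains and far below any unstimulated one. RFA1, the large DNA-binding subunit (YAR007C, chromosome I, 156754 to 158619), had 223, 212 and 223 FPKM in stimulated MATα-playing-a libraries, against 389, 349 and 404 FPKM in unstimulated ones. In stimulated MATa libraries it had 214, 237 and 235 FPKM, against 364, 350.5 and 379 FPKM in unstimulated ones. The changes were -1.32 ± 0.10 and -1.38 ± 0.10 for RFA3, -0.93 ± 0.09 and -1.03 ± 0.09 for RFA2, the middle subunit, and -0.79 ± 0.07 and -0.67 ± 0.07 for RFA1, in MATα-playing-a and MATa cells in that order; the order of the subunits within a strain was not tested.

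The enzymes that finish Okazaki fragments were both called lower but differed in size of change. RAD27, the flap endonuclease that trims the displaced primer (YKL113C, chromosome XI, 224727 to 225875), had 146, 152 and 147 FPKM in stimulated MATα-playing-a libraries, against 470.4, 440.0 and 524 FPKM in unstimulated ones. In MATa it had 147, 126 and 131 FPKM in stimulated libraries, against 502, 460.1 and 541 FPKM in unstimulated ones. The stimulated and unstimulated values were far apart in each strain, with changes of -1.68 ± 0.08 (adjusted p = 1.97e-08) and -1.89 ± 0.08 (adjusted p = 8.26e-09). CDC9, the DNA ligase that seals the remaining nick (YDL164C, chromosome IV, 164987 to 167254), had 152, 139 and 142 FPKM in stimulated MATα-playing-a libraries, against 192, 181 and 189 FPKM in unstimulated ones. In stimulated MATa libraries it had 149, 149.6 and 143 FPKM, against 188, 184 and 203 FPKM in unstimulated ones. CDC9 kept 76.97% and 76.7% of its unstimulated means, without overlap between groups. It overlaps the listed gene YDL163W, and reads of the pair cannot be told apart. YDL163W changed by -0.85 in MATα-playing-a cells, where it was called lower, and by -0.28 in MATa cells, without a call.

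**Figure D3:**
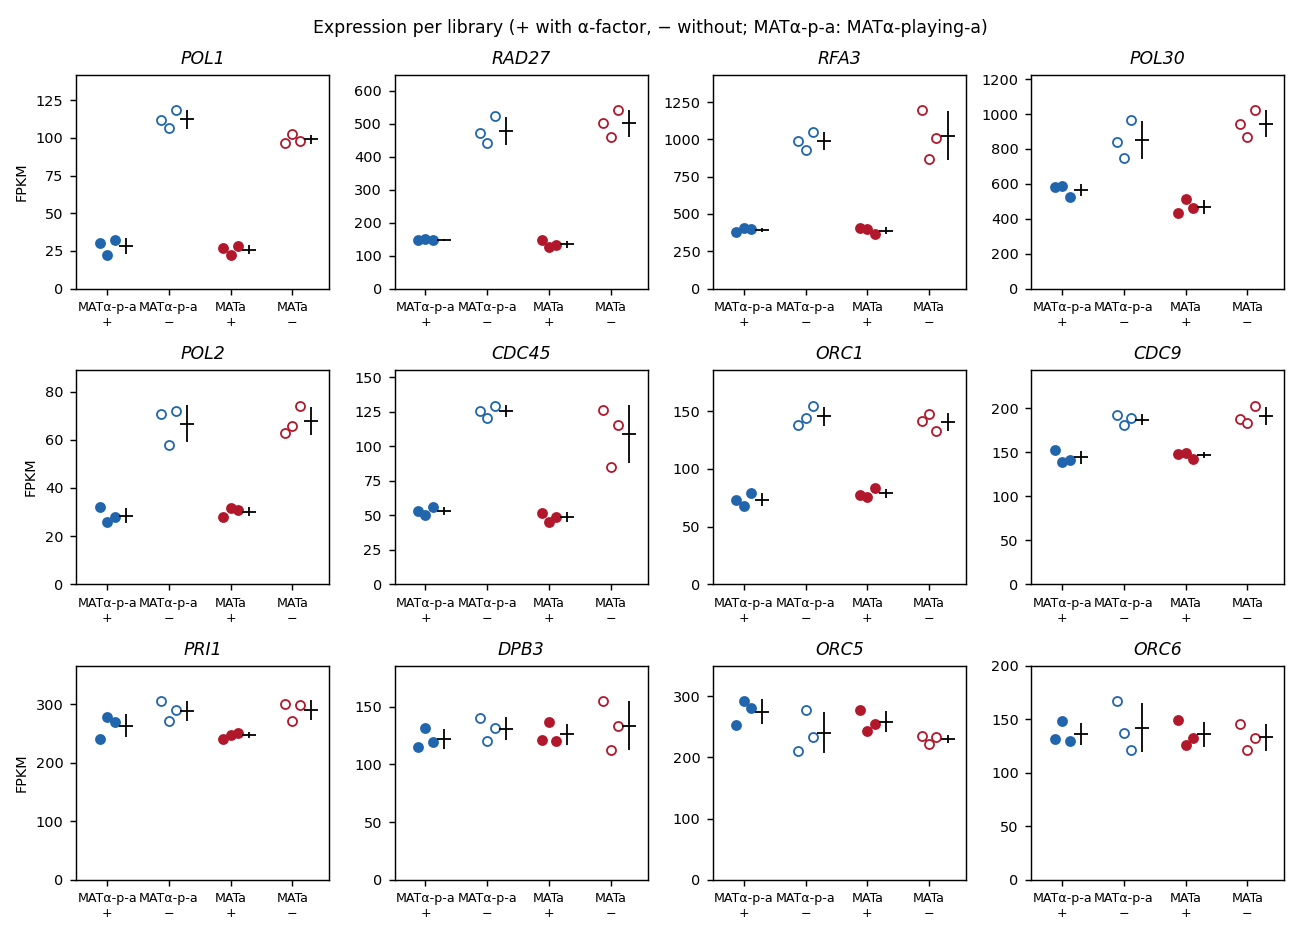
FPKM of 12 of the genes in each of the 12 libraries; filled points are stimulated and open points unstimulated libraries, blue is MATα-playing-a (MATα-p-a) and red MATa, and black marks give the mean ± SD of 3. In POL1, RAD27, RFA3, POL30, POL2, CDC45, ORC1 and CDC9 the stimulated points lie below all unstimulated points of their strain, and in DPB3 and ORC6 they overlap.

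All 4 fork protection genes were called lower in both strains. TOF1, which with Csm3 and Mrc1 keeps the helicase and polymerases together and pauses forks (YNL273W, chromosome XIV, 122883 to 126599), had 30.8, 24.4 and 32.8 FPKM in stimulated MATα-playing-a libraries, against 79.5, 72.5 and 76.9 FPKM in unstimulated ones. Stimulated MATa libraries had 30.2, 24.5 and 32.1 FPKM, against 63.3, 62.2 and 57.9 FPKM in unstimulated ones. The stimulated libraries of both strains were alike, while the unstimulated MATα-playing-a libraries lay above the unstimulated MATa ones. CTF4, which ties polymerase α to the helicase (YPR135W, chromosome XVI, 799234 to 802017), had 96.2, 85.9 and 94.7 FPKM in stimulated MATα-playing-a libraries, against 131, 124 and 135 FPKM in unstimulated ones. In MATa it had 91.9, 94.3 and 88.3 FPKM in stimulated libraries, against 127, 121 and 123 FPKM in unstimulated ones. TOF1 changed by -1.36 ± 0.13 in MATα-playing-a and -1.06 ± 0.13 in MATa cells, and CTF4 by -0.49 ± 0.07 and -0.44 ± 0.07. MRC1, the checkpoint mediator of the fork, changed by -0.86 and -0.77, and CSM3 by -0.34 and -0.53. The call of CSM3 in MATα-playing-a cells (limma adjusted p = 0.0112) was narrowly lost when certain single libraries were left out, with the direction kept. Without unstimulated replicate 3 its change was -0.25 (adjusted p = 0.0535), and without stimulated replicate 1 it was -0.27 (adjusted p = 0.0520).

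Cdc45 and GINS turn the loaded Mcm2-7 ring into the active helicase, and among their genes CDC45 fell most. CDC45 (YLR103C, chromosome XII, 343989 to 345941) had 52.7, 50.04 and 56.3 FPKM in stimulated MATα-playing-a libraries, against 126, 121 and 129 FPKM in unstimulated ones. In MATa the stimulated libraries had 51.9, 45.2 and 48.8 FPKM, against 126, 85.2 and 115 FPKM in the unstimulated ones. Unstimulated MATa replicate 2 was low for this gene, and was still above every stimulated library. The falls were 2.34-fold (adjusted p = 5.6e-06) and 2.19-fold (adjusted p = 1.13e-05).

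The 4 GINS genes changed less. PSF2 (YJL072C, chromosome X, 305221 to 305862) had 199, 193 and 189 FPKM in stimulated MATα-playing-a libraries, against 250.4, 204 and 234 FPKM in unstimulated ones, and 208, 214 and 182 FPKM in stimulated MATa libraries, against 254, 181 and 229 FPKM in unstimulated ones. The groups overlapped in MATa and stood apart narrowly in MATα-playing-a, and neither change was called (-0.24, adjusted p = 0.0943, and -0.13, adjusted p = 0.376). Without unstimulated MATa replicate 2 PSF2 was called lower in both strains (-0.24, adjusted p = 0.0338, and -0.26, adjusted p = 0.0394), and without unstimulated MATα-playing-a replicate 2 in MATα-playing-a cells (-0.32, adjusted p = 0.0482). PSF3 had 227, 234 and 167 FPKM in stimulated MATα-playing-a libraries, against 226, 210.4 and 263 FPKM in unstimulated ones, and 172, 188 and 180.4 FPKM in stimulated MATa libraries, against 288, 230.0 and 266 FPKM in unstimulated ones. Its values overlapped in MATα-playing-a, with stimulated replicate 3 below the other two, and stood apart in MATa. PSF1 kept 71.1% of its unstimulated mean in MATα-playing-a and 63.1% in MATa cells, and SLD5 72.6% and 75.97%; both were called lower in each strain.

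The firing factors Sld2, Sld3 and Dpb11, through which cyclin-dependent kinase starts replication in yeast, all had lower RNA in both strains. SLD2, a kinase substrate that binds Dpb11 (YKL108W, chromosome XI, 234426 to 235787), had 96.98, 106 and 95.9 FPKM in stimulated MATα-playing-a libraries, against 182, 177 and 202 FPKM in unstimulated ones. In stimulated MATa libraries it had 97.6, 99.7 and 113 FPKM, against 204, 151 and 209 FPKM in unstimulated ones. Its groups stood apart in both strains, with unstimulated MATa replicate 2 again the lowest of its group. SLD3, which brings Cdc45 to origins (YGL113W, chromosome VII, 295932 to 297938), had 101, 106 and 102 FPKM in stimulated MATα-playing-a libraries, against 135, 148 and 144 FPKM in unstimulated ones. In MATa it had 97.05, 106 and 105 FPKM with α-factor, against 149, 141 and 157 FPKM without. SLD2 changed by -0.90 ± 0.12 and -0.84 ± 0.12, SLD3 by -0.46 ± 0.07 and -0.53 ± 0.07, and DPB11, the scaffold that joins them, by -0.68 ± 0.09 and -0.68 ± 0.09, in MATα-playing-a and MATa cells in that order.

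The ORC genes were divided: ORC1, ORC2 and ORC3 were called lower in both strains, and ORC4, ORC5 and ORC6 were called in neither, although with median-ratio scaling ORC5 was called higher in both strains (0.30, adjusted p = 0.0189, in MATα-playing-a and 0.25, adjusted p = 0.0387, in MATa) and ORC4 in MATa cells (0.20, adjusted p = 0.0457). ORC1, the ATPase subunit that also binds silencing proteins (YML065W, chromosome XIII, 142210 to 144954), had 73.03, 67.8 and 78.97 FPKM in stimulated MATα-playing-a libraries, against 138, 144 and 155 FPKM in unstimulated ones. Stimulated MATa libraries had 76.9, 76.01 and 83.4 FPKM, against 141, 148 and 133 FPKM in unstimulated ones. The fall was 1.97-fold and 1.77-fold, with no MCB element in its window. ORC2 changed by -0.62 and -0.49, and ORC3 by -0.35 and -0.50.

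ORC6, the subunit with the smallest change in MATa cells (YHR118C, chromosome VIII, 344321 to 345628), had 131, 148 and 129 FPKM in stimulated MATα-playing-a libraries, against 167, 137 and 121 FPKM in unstimulated ones. In MATa cells it had 149, 125 and 133 FPKM in stimulated libraries, against 146, 121 and 133 FPKM in unstimulated ones. These values ran through each other, and the 95% intervals of the change, -0.31 to 0.21 and -0.23 to 0.29, hold 0. ORC4 had changes of -0.02 (interval -0.19 to 0.15) and 0.11 (-0.06 to 0.28). ORC5, which lies downstream of POL2 on the same strand with 219 bases between them, had 253, 292 and 281 FPKM in stimulated MATα-playing-a libraries, against 211, 277 and 233 FPKM in unstimulated ones, and 277, 243 and 255 FPKM in stimulated MATa libraries, against 236, 222 and 233 FPKM in unstimulated ones. Its values overlapped in MATα-playing-a, where unstimulated replicate 2 was high, and did not in MATa; without that replicate it was called higher in MATα-playing-a cells (0.31, adjusted p = 0.00939). Of these neighbours POL2 was thus called lower in both strains and ORC5 in neither.

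Summed over each complex, the level left in stimulated cells differed between the roles. The RAD27 and CDC9 pair kept 44.0% of its unstimulated summed FPKM in MATα-playing-a and 40.7% in MATa cells, and RPA 47.4% and 46.0%. Polymerase δ kept 58.9% and 59.7%, the firing factors 61.5% in each strain, the fork protection genes 63.7% and 64.8%, the clamp loaders 65.3% and 61.1%, polymerase ε 67.3% and 65.9%, polymerase α and primase 68.4% and 67.9%, and Cdc45 with GINS 74.7% and 70.8%. The ORC genes kept most, 85.5% and 87.5%. These sums are led by the most abundant subunits of each complex, and differences between complexes were not tested.

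None of the 41 genes was called different between the strains. Without α-factor, MATα-playing-a minus MATa ran from -0.17 for RFC2 to 0.31 for TOF1, and limma called 0 of 41 genes, with 4 (POL12, POL3, RFC2 and TOF1) at an unadjusted p under 0.05. Of all tested genes 0.605% were called lower and 0.348% higher, and 12.5% had an unadjusted p under 0.05, so the 4 do not exceed the background. The smallest adjusted p was that of TOF1 (0.372), which averaged 76.3 ± 3.54 FPKM in unstimulated MATα-playing-a and 61.1 ± 2.84 FPKM in unstimulated MATa cells. With α-factor the difference ran from -0.15 for RFC1 to 0.27 for POL30, again with 0 of 41 called by limma and 3 (POL30, RFC1 and RFC5) at an unadjusted p under 0.05. Here 0.651% of all tested genes were called lower and 1.56% higher, and 11.3% had an unadjusted p under 0.05, again a larger share than among the 41. POL30 averaged 566 ± 34.3 FPKM in stimulated MATα-playing-a and 469 ± 40.8 FPKM in stimulated MATa cells (adjusted p = 0.313). All 41 intervals of 95% lay within 2-fold in each of these comparisons, from -0.46 to 0.60 without and from -0.37 to 0.50 with α-factor. No alternative setting called any of the 41 genes here.

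The responses of the strains were also not called different for any of the 41 genes. BAR1 RNA differed between the strains, and its part in comparisons of the strains was not tested. The response in MATα-playing-a minus that in MATa ran from -0.38 for POL12 to 0.43 for POL30, and limma called 0 of 41, with 4 (POL12, POL3, POL30 and RFC5) at an unadjusted p under 0.05. Of all tested genes 0.0757% were called lower and 0.409% higher, and 11.7% had an unadjusted p under 0.05, a larger share than among the 41. For POL30 the interval was 0.11 to 0.74 (adjusted p = 0.335), for POL12 -0.74 to -0.03 (adjusted p = 0.405), and for PSF3 -0.05 to 0.78 (adjusted p = 0.44). POL12 changed by -0.99 in MATα-playing-a and -0.60 in MATa cells, and POL30 and RFC5, the convergent neighbours, had the smaller change in MATα-playing-a. Bounds over the 41 genes ran from -0.74 to 0.78, within 2-fold for all of them. Across the 41 genes the changes in MATα-playing-a and MATa cells had Pearson's r = 0.931 and Spearman's rho = 0.902, and over all 6608 tested genes r was 0.866. These correlations are across genes, which are not independent replicates, and the responses rest on separate libraries. The median absolute difference between the 2 responses was 0.11.

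**Figure D4:**
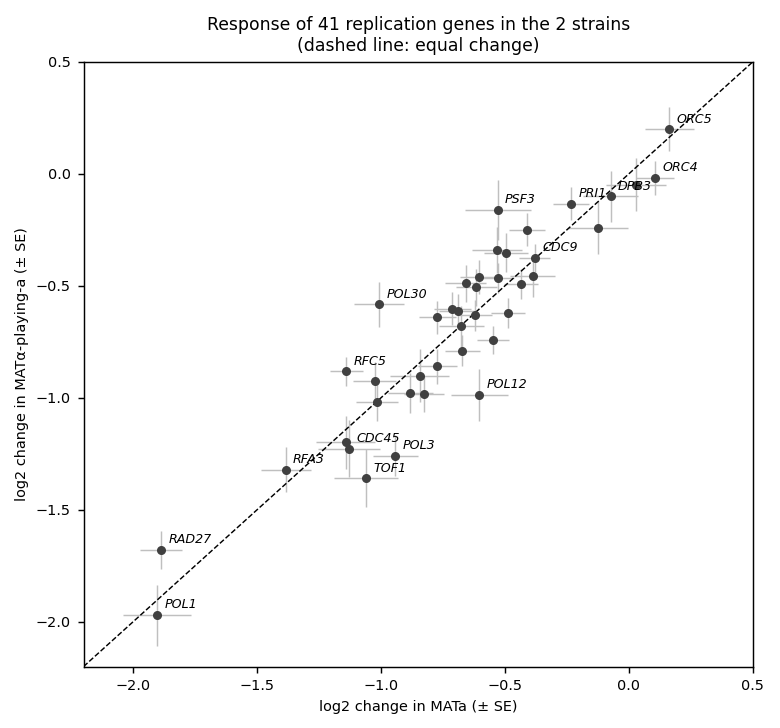
Log2 change with α-factor (stimulated minus unstimulated, log2(FPKM + 1), ± SE from limma) of the 41 genes in MATα-playing-a cells (vertical axis) against MATa cells (horizontal axis); the dashed line marks equal changes. The points follow the line (r = 0.931), with POL30 and PSF3 farthest above it and POL12 and POL3 farthest below; none of these differences was called.

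Other genes of replication and the cycle moved as follows. Of 36 further replication genes, 29 were lower and 2 higher in MATα-playing-a cells (median -0.58), and 27 were lower and 1 higher in MATa cells (median -0.48). Over all tested genes, 39.1% were called lower and 29.8% higher in MATα-playing-a cells, and 38.1% and 28.5% in MATa cells. RNR1, the large subunit of ribonucleotide reductase, averaged 154 ± 29.3 FPKM in stimulated and 1043 ± 95.9 FPKM in unstimulated MATα-playing-a cells, and 103 ± 16.5 FPKM in stimulated and 992 ± 52.7 FPKM in unstimulated MATa cells, a change beyond that of any of the 41 genes. CDC6, which loads the Mcm2-7 helicase, changed by -1.61 in MATα-playing-a and -1.84 in MATa cells, and RNH201, a subunit of ribonuclease H2, by -1.83 and -1.38. RNR3, a subunit of ribonucleotide reductase known for induction by DNA damage, was higher, by 0.36 and 0.77. Of 13 regulators of G1/S, 11 were lower in each strain. The G1 cyclin genes CLN1 and CLN2 changed by -2.63 and -2.17 in MATα-playing-a and by -3.07 and -2.19 in MATa cells. FAR1, the inhibitor through which pheromone arrests the cycle, was higher by 1.42 and 1.40, and the G1 cyclin gene CLN3 by 0.48 in MATa cells, with 0.21 and no call in MATα-playing-a. Between the stimulated groups, 1 of the 13 regulators (CLN1, 0.50) and 1 of the 36 further replication genes were called higher in MATα-playing-a cells. None was called lower there, and 1.56% of all tested genes were called higher.

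Markers of later stages moved with the fall of the 41 genes, and their part in the result was not tested. All 8 S-phase histone genes were lower in both strains, with median changes of -2.45 in MATα-playing-a and -2.71 in MATa cells. All 8 G2/M genes were lower too, with medians of -2.43 and -2.32. Of 6 M/G1 genes, 4 were lower in MATα-playing-a and 5 in MATa cells, and none was higher, with medians of -0.71 and -0.90. Of all tested genes, 39.1% were called lower in MATα-playing-a and 38.1% in MATa cells. The median change of each of these lists was larger than that of the 41 replication genes. Between the stimulated groups, 3 of 8 histone, 2 of 6 M/G1 and 0 of 8 G2/M genes were called higher in MATα-playing-a cells. None was called lower there, and 1.56% of all tested genes were called higher. The responses were called different for HTA2 (0.92) and PCL9 (0.65), which fell less in MATα-playing-a cells, against 0.409% of all tested genes.

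Longer genes tended to fall more, mainly in MATα-playing-a cells. Across the 41 genes, from RFA3 with 369 bases to POL2 with 6669, length and the change had a rank correlation of -0.45 in MATα-playing-a and -0.22 in MATa cells, against -0.15 and 0.01 over 5759 tested genes matched to RefSeq with a mean of at least 10 FPKM. Length and the unstimulated MATa level had one of -0.70 across the 41 genes, against -0.28 over the 5759. The unstimulated level of a strain and its change had one of 0.076 in MATα-playing-a and -0.029 in MATa cells, against -0.29 and -0.35 over the 5759. Points of these correlations share libraries and an FPKM scaled by length, and they are given as descriptions.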

How the data were processed

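RNA sequencing libraries of 12 samples were analysed from 1 deposited table per library, which lists FPKM values that the authors made with Cufflinks for 7126 genes. The submitters' processing notes list Cufflinks 0.9.3, TopHat 1.1.4 and CASAVA 1.8.2; the genome build is not given in the sources used here. Per the labels, RNA was extracted with hot acid phenol and all libraries were multiplexed in 1 lane. FPKM times gene length summed to more than the total the unit allows, so the deposited FPKM carry a further scaling of unknown source. The sum was 5.02 to 5.22 times that total in stimulated libraries and 5.68 to 6.22 times in unstimulated ones. The scaling thus differed by treatment, and its part in the changes with α-factor, small ones above all, was not tested. No step of whole reads was found in the low values (strongest 3.67, against 3.57 in blurred values), and depth and counting error are unknown. Upper bounds of FPKM were also deposited and were not used in the tests. For 81.8% of the values above 0 the bound lay at, or very near, FPKM plus 2 times its square root.

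FPKM values were used as log2(FPKM + 1) for the 6608 genes with a mean of at least 1. One model of the 4 group means was fitted over all libraries in limma 3.58.1 (R 4.3.3; eBayes with an intensity trend, 8 residual degrees of freedom), with 5 contrasts: stimulated minus unstimulated in each strain, MATα-playing-a minus MATa in unstimulated and in stimulated cells, and the difference between both responses. Two-sided p-values were adjusted over all 6608 genes by Benjamini and Hochberg, and genes below 0.05 were called. The procedure was tested on simulated data. Tables and motif searches used Python 3.11.15 (pandas 2.3.3, numpy 2.4.6). Coordinates in the files equal those of RefSeq R64 for all 41 genes and for 6036 of 6048 matched identifiers. Genes that overlap another were kept and named.

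The 41 genes and the other lists were chosen with earlier results of these data known. Values in every library are given for the gene with the largest and the gene with the smallest absolute change in MATa cells in each role; ORC5 and PSF3 were added after their values were seen. Replicates are called biological in the labels; stimulated samples came from the rest of the unstimulated samples' cultures, but no label ties numbers to cultures, and same-numbered libraries were not treated as pairs. Alternatives were constants of 0.1 and 10, no filter, a mean of at least 10, median-ratio and quantile scaling, replicate blocks, only the compared libraries, no trend, a 2-fold limit, and each library left out.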

Additional observations from a re-analysis of the deposited data

How the results depend on the processing

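The fall of the replication genes kept its direction under all alternatives. Median-ratio scaling moved the median of all tested genes to 0.00 in MATα-playing-a, from -0.10, and to -0.01 in MATa cells, from -0.09; the members' medians became -0.53 and -0.57, with 33 and 35 lower and 1 and 2 higher (ORC5 in both, ORC4 in MATa). It reversed changes that were not called: DPB3 in MATa (0.016), and ORC4 (0.078) and ORC6 (0.048) in MATα-playing-a.

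Stimulated and unstimulated samples of a strain came from the same cultures per the labels, which do not say that the replicate number marks the culture. Deviations of same-numbered stimulated and unstimulated libraries correlated at -0.21, -0.08 and -0.08 in MATα-playing-a and 0.11, -0.02 and 0.20 in MATa cells. A replicate block left 34 and 36 genes lower. A replicate block by culture called 1 gene higher in MATα-playing-a (ORC5, 0.20, adjusted p = 0.0321) and 11 genes higher in the difference of responses over all genes (27 without it). PSF2 was called lower in MATα-playing-a under quantile scaling (-0.28, adjusted p = 0.0496) and with only the compared libraries (-0.24, adjusted p = 0.0468).

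Requiring 2-fold left 8 genes lower in MATα-playing-a and 10 in MATa cells. Over all genes it left 738 higher and 499 lower in MATα-playing-a, 646 and 499 in MATa, 14 and 19 in the strain difference without α-factor, 34 and 15 with it, and 16 higher in the difference of responses. Only the compared libraries gave 14 and 19 without α-factor. Quantile scaling gave 66 lower in the strain difference with α-factor and 8 lower in the difference of responses.

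With each library left out in turn, MATα-playing-a had 33 to 35 lower, 0 to 1 higher and a median of -0.68 to -0.59, and MATa cells 36 to 37 lower and a median of -0.69 to -0.63. The members' median ran from -0.062 to 0.039 in the strain difference without α-factor and from -0.045 to 0.063 in the difference of responses. Over all genes the strain difference with α-factor had 59 to 108 higher and 26 to 45 lower, and the difference of responses 17 to 42 higher and 4 to 8 lower. Signs turned, always without a call, for ORC4 (-0.076 to 0.034, positive without unstimulated replicate 1 or stimulated replicate 1) and ORC6 (-0.15 to 0.073, positive without unstimulated replicate 1) in MATα-playing-a, and for DPB3 (-0.19 to 0.037, positive without unstimulated replicate 1) and ORC6 (-0.0396 to 0.095, negative without unstimulated replicate 2 or stimulated replicate 1) in MATa cells. The causes of these changes were not tested.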
